A study of Homo sapiens with 1 sample.

Results

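The microRNAs (miRNAs) miR-371a, miR-371b, miR-372 and miR-373 were examined in DLD-1, a long-established line of human colorectal carcinoma cells. The cells had received a negative control siRNA (si-NC), and 1 array of 1 sample was available, so there was no biological replicate and no comparison between treatments. The study used such arrays to ask how miRNA levels changed when circLONP2, a circular RNA of the LONP2 gene, was depleted or overexpressed. No array of either treatment was analysed here. Total RNA was labelled with Cy3 and read on a single-colour Agilent array. Members were chosen by name alone, as every miRNA on the array named miR-371a, miR-371b, miR-372 or miR-373, with or without an arm suffix. This gave 8 mature miRNAs, the 5p and the 3p arm of each of the 4 hairpins, out of 2549 miRNAs on the array. All errors below are technical, taken either over replicate spots or as the software of the scanner computed them, and no p-value was computed.

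A miRNA is cut from a hairpin in a longer transcript by the Drosha and DGCR8 complex, and Dicer then frees a mature strand from the 5p arm, the 3p arm or both. Bases 2 to 8 of the mature strand, the seed, carry most of the pairing with target messenger RNAs. The miR-371 to miR-373 hairpins lie side by side and are known to be made as a shared transcript in human embryonic stem cells and in germ cell tumours, where miR-371a-3p serves as a serum marker. Both miR-372 and miR-373 are known to repress LATS2, a kinase of the Hippo pathway.

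The sequences below show what the members share. All 8 were matched by name in RefSeq (GRCh38.p14), and capitals mark the seed. The 3p arms are printed first, since those of miR-372 and miR-373 carry the seed for which the cluster is known.
miR-371a-3p: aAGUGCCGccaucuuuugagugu
miR-371b-3p: aAGUGCCCccacaguuugagugc
miR-372-3p: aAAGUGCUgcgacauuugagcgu
miR-373-3p: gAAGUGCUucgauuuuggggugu
miR-371a-5p: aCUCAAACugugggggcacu
miR-371b-5p: aCUCAAAAgauggcggcacuuu
miR-372-5p: cCUCAAAUguggagcacuauucu
miR-373-5p: aCUCAAAAugggggcgcuuucc

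The 3p arms of miR-372 and miR-373 had the same seed, AAGUGCU. The 3p arms of miR-371a and miR-371b held the hexamer AAGUGC from base 1 in place of base 2, so that their seeds, AGUGCCG and AGUGCCC, differed from it and from each other. Among the 5p arms, miR-371b-5p and miR-373-5p had the same seed, CUCAAAA.

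In GRCh38.p14 the 4 hairpins spanned 1099 bases. MIR371A lay at chr19:53787675-53787741, MIR372 at chr19:53787890-53787956 and MIR373 at chr19:53788705-53788773, all on the plus strand. MIR371B lay at chr19:53787677-53787742 on the minus strand, so that its hairpin was the reverse complement of MIR371A over nearly all of its length. The 2 hairpins are printed here, with the mature arms in capitals, to show this arrangement.
MIR371A: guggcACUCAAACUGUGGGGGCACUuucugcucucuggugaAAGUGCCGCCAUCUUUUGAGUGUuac
MIR371B: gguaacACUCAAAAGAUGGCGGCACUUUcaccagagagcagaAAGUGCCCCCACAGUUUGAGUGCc

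The arms of miR-371a and miR-371b therefore lay opposite each other. miR-371a-5p and miR-371b-3p shared 20 positions on opposite strands, and miR-371a-3p and miR-371b-5p shared 21. In the RefSeq gene order the gene that starts before the cluster was the long non-coding RNA LOC124904767, whose span held MIR371A, MIR371B and MIR372 but not MIR373. The next gene after MIR373 was NLRP12, a protein-coding gene. The nearest hairpin before the cluster was MIR519A2, at 25244 bases, the last of the large primate miRNA cluster of chromosome 19.

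Of the 8 members, 6 were called detected by the scanner software. Over all 2549 miRNAs the same flag was set for 1133, or 44.4%. Among the members the undetected arms were miR-371b-3p and miR-372-5p. A miRNA was flagged when at least 1 of its probes had a signal above 3 times its error, which was read from the values of the array. The members had 18 probes in all, of which 14 passed that ratio, and the probes of each member fell on the same side of it. In the RNA of a whole culture, signal from a few cells and a low level in every cell cannot be told apart.

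At the level of single spots, 101 of 156 member spots were well above background by the software flag, after outlier spots were left out. The share over all miRNA spots was 34.0%. After background subtraction, the median over all 1000 negative control spots was 0.0894 intensity units and their 99th percentile was 16.1. Of those 1000, 14 were well above background, and all 14 were outlier spots. Among the 937 that were not, 0 were well above background, and the highest signal was 4.58. Since leaving out outlier spots removed all 14, that 0 sets no limit on the share. No spot of a miRNA probe was saturated.

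**Figure D1:**
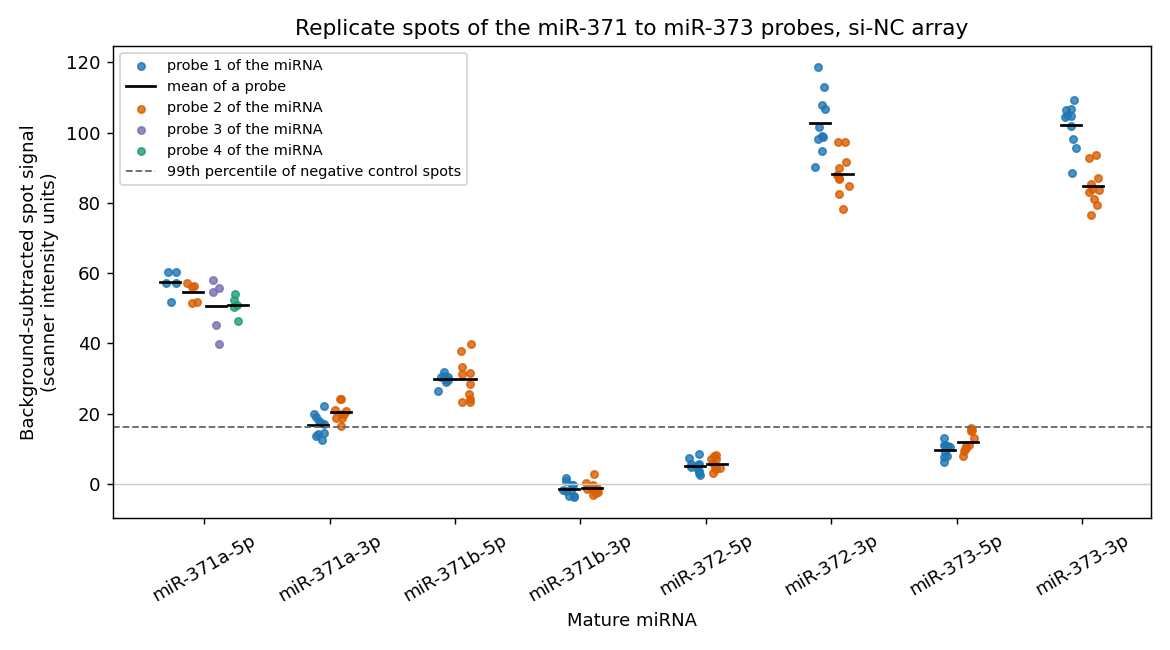
Background-subtracted signal of each replicate spot (y axis, scanner intensity units) for the 8 mature miRNAs (x axis), with outlier spots left out. Colours separate the probes of a miRNA, black bars are probe means, and the dashed line is the 99th percentile of negative control spots, 16.1. The spots of miR-372-3p and miR-373-3p lie between 76.7 and 119 and above the dashed line, and all spots of miR-371b-3p lie below it.

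The 3p arms of miR-372 and miR-373, which carry the AAGUGCU seed, were detected with every spot well above background. The 20 spots of miR-372-3p ran from 78.3 through a median of 96.04 to 119 intensity units. Those of miR-373-3p ran from 76.7 through 93.3 to 109. Each had 20 spots, and all lay above the highest negative control spot, which was at 45.4 with outlier spots included.

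The total gene signal, which adds up the probes past 3 times their error, was 35.0 ± 2.58 for miR-372-3p (error from the software). It was 34.2 ± 2.52 for miR-373-3p. Total signals are smaller than spot signals because the software scales them: a probe's signal was 0.0183 times its mean spot signal times its number of spots, over 1940 probes of the array. For the detected miRNAs of the array the median total gene signal was 12.5, with quartiles of 4.99 and 52.0. Brightness of different probes is not abundance, so these values do not order the members by amount.

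The matching 5p arms, the strands opposite these in the hairpin, were at or near the limit. For miR-373-5p the spots ran from 6.28 through 10.6 to 15.9, and 5 of 20 were well above background. Its total gene signal was 3.96 ± 0.734, an error of 18.5% of the value, and its probes stood at 3.49 and 4.13 times their error. All 20 spots exceeded the highest negative control spot that was no outlier, and 0 exceeded the 99th percentile over all negative control spots. It thus passed the software flag and the lower of these limits on single spots. It did not pass the higher limit, for which outlier spots among the negative controls were kept.

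For miR-372-5p the 19 spots kept ran from 2.63 through 5.50 to 8.52, and 0 were well above background. Its probes reached 1.94 and 2.17 times their error, under the 3 that detection asks for. None of its spots was below 0, and 11 of 19 exceeded the highest negative control spot that was no outlier. Its level was not detectable by the flag, which does not show that the strand was absent. Among the 1416 undetected miRNAs, 112 had a probe at a higher ratio than miR-372-5p.

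**Figure D2:**
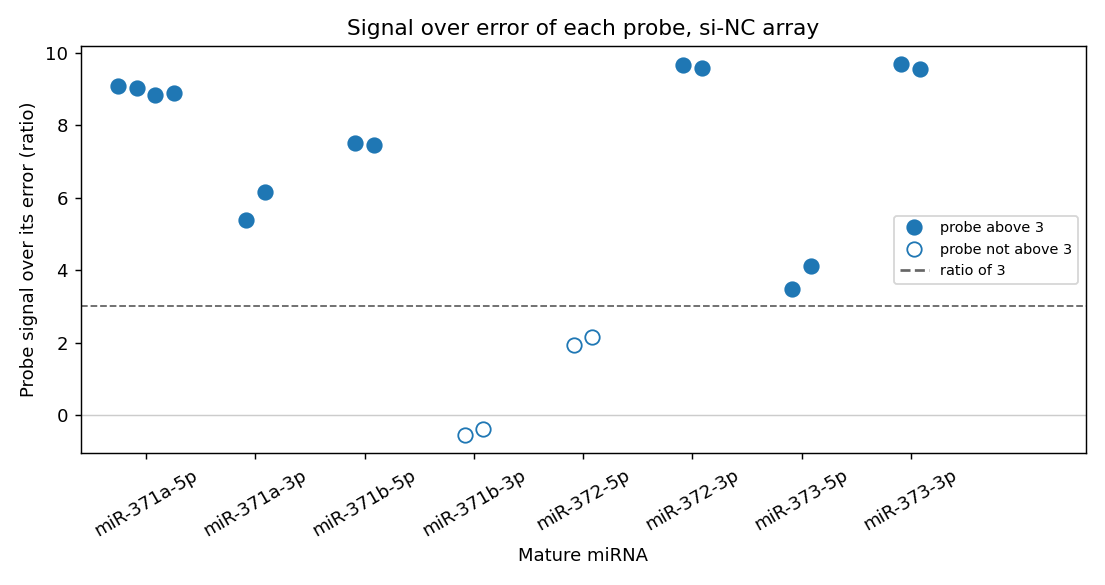
Probe signal divided by its error from the scanner software (y axis, ratio) for each of the 18 probes of the 8 mature miRNAs (x axis). The dashed line is the ratio of 3 that a detected miRNA must pass with at least 1 probe, filled circles pass it, and the 4 open circles belong to miR-371b-3p and miR-372-5p.

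Both arms of miR-371a, the first hairpin of the transcript, were detected. miR-371a-5p was measured by 4 probes of 5 spots each, and its 20 spots ran from 39.8 through 54.3 to 60.4, all well above background. Its total gene signal was 19.5 ± 1.09. The means of its probes were 57.4 ± 3.52 (SD over spots), 54.5 ± 2.68, 50.7 ± 7.76 and 50.8 ± 2.85.

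miR-371a-3p, the arm used as a germ cell tumour marker, was detected as well. The 19 spots kept ran from 12.6 through 18.8 to 24.3, of which 18 were well above background and 15 exceeded the 99th percentile of negative control spots. The total gene signal was 6.82 ± 0.834, and the probes stood at 5.40 and 6.15 times their error.

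On the opposite strand, miR-371b-5p was detected and miR-371b-3p was not. The 18 spots of miR-371b-5p ran from 23.3 through 30.1 to 39.9, all of them well above background, and its total gene signal was 10.9 ± 1.03. The 20 spots of miR-371b-3p ran from -3.70 through -1.42 to 2.70, of which 16 were below 0 and 0 were well above background. The highest spot of miR-371b-3p was thus below the highest negative control spot that was no outlier. Every spot of miR-371b-5p exceeded 16.1, the 99th percentile over all negative control spots. In the sequences above, miR-371b-5p and the plus-strand arm miR-371a-5p both begin with ACUCAAA and hold GGCACU near their other end. The total gene signal of miR-371a-5p was 19.5 ± 1.09. Whether the miR-371b-5p probes bind miR-371a-5p or other RNA from the plus strand was not tested, and the probe sequences were not used here.

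**Figure D3:**
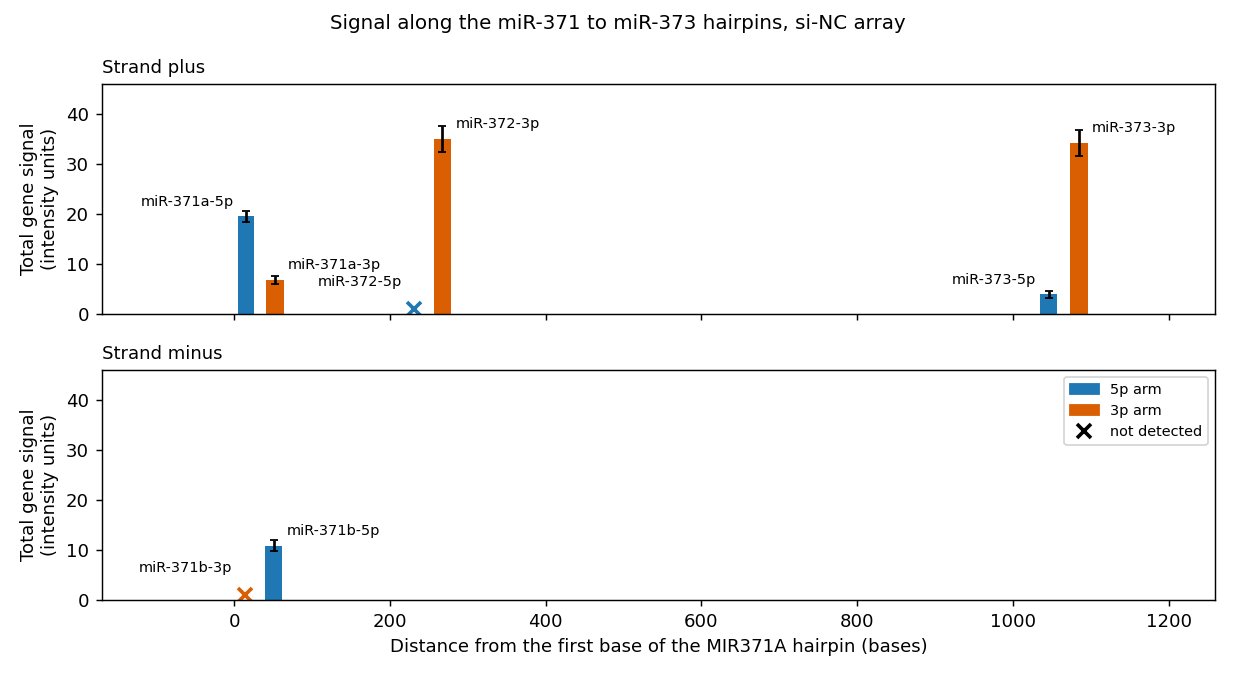
Total gene signal (y axis, intensity units) of each arm drawn at its distance in bases from the first base of the MIR371A hairpin (x axis), for the plus strand (top) and the minus strand (bottom). Bars are as wide as the mature miRNA, error bars are the software's errors, and crosses mark arms not detected. On the plus strand 5 of 6 arms were detected, and on the minus strand only miR-371b-5p.

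Along the plus strand, then, 5 of 6 arms were detected, and each of the 3 hairpins had at least 1. Across the 4 hairpins, both arms were detected for miR-371a and miR-373, only the 5p arm for miR-371b and only the 3p arm for miR-372. Over the 810 pairs of arms on the array, both were detected in 28.6%, only the 5p arm in 20.1%, only the 3p arm in 15.1% and neither in 36.2%. With 4 hairpins, these shares stand only as a background for the members.

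Different probes of a member lay close together. The brightest and the dimmest usable probe, with at least 50% of spots well above background, differed on the log2 scale by 0.28 ± 0.10 (SE from replicate spots) for miR-371a-3p and by 0.27 ± 0.04 for miR-373-3p. The difference was 0.22 ± 0.05 for miR-372-3p, 0.18 ± 0.11 for miR-371a-5p and 0.00 ± 0.09 for miR-371b-5p. Over 800 detected miRNAs with at least 2 usable probes the median difference was 0.35, so all 5 members lay below it. For miR-372-3p and miR-373-3p the difference exceeded 3 times its error, and for the other 3 it did not. The coefficient of variation between replicate spots had a median of 6.60% over the 12 usable member probes, from 4.92% to 19.9%, beside 8.73% over 1940 probes of the array.

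Levels were also taken as log2 values against a reference, the 75th percentile of the spots that belong to detected miRNAs. Here miR-372-3p lay at -0.58 ± 0.11 (SD over replicate spots) and miR-373-3p at -0.62 ± 0.09. The level was -1.43 ± 0.14 for miR-371a-5p and -2.27 ± 0.22 for miR-371b-5p. It was -2.96 ± 0.23 for miR-371a-3p and -3.76 ± 0.33 for miR-373-5p. Every detected member was thus below the reference signal of 143 intensity units. With the percentile taken over all miRNA spots the sign turned for 4 of the 6, to 1.86 for miR-372-3p, 1.82 for miR-373-3p, 1.01 for miR-371a-5p and 0.17 for miR-371b-5p.

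In the deposited table of quantile-normalized log2 values, whose floor is 2.32, the same 6 members lay above the floor. The values were 5.21 for miR-372-3p, 5.16 for miR-373-3p, 4.41 for miR-371a-5p, 3.53 for miR-371b-5p and 2.77 for miR-371a-3p. For miR-373-5p the value was 2.32, just above the floor, and 283 miRNAs shared it, so the table keeps no order between this arm and those. A lower level of the undetected arms could not be seen in that table.

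The members were next set beside miRNAs with the same seed core, to see which other carriers of it gave a signal. Of the other 20 miRNAs whose RefSeq sequence holds AAGUGC from base 1, 2 or 3, 7 were detected, or 35.0%. Examples are printed with the seed in capitals, since they show how the hexamer shifts between families.
miR-302a-3p: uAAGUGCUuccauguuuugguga
miR-520c-3p: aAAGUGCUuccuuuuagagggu
miR-17-5p: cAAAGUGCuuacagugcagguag

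The count differed by the position of the hexamer. From base 2, as in miR-372-3p and miR-373-3p, 0 of 10 others were detected. From base 3, as in miR-17-5p, 6 of 7 were, and from base 1, as in miR-371a-3p, 1 of 3 was. The 4 of them with the highest total gene signal all held it from base 3 and belong to the miR-17 family, which is widely made in dividing cells. They were miR-20a-5p at 12080 ± 865, miR-20b-5p at 7139 ± 517, miR-17-5p at 5162 ± 307 and miR-106b-5p at 2383 ± 169. The other 3, named after their values were seen, were miR-93-5p at 1109 ± 79.1, miR-519d-3p at 4.30 ± 0.743 and, from base 1, miR-519e-3p at 2.24 ± 0.531.

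Among the miRNAs of the array matched to RefSeq, the exact seed of miR-372-3p and miR-373-3p was shared by 8 others. They were miR-302a-3p, miR-302b-3p, miR-302c-3p, miR-302d-3p, miR-302e, miR-520a-3p, miR-520c-3p and miR-520d-3p. None was detected, 0 of their 154 spots were well above background, and their highest spot was 7.13. That spot lay above the highest negative control spot that was no outlier, at 4.58. It lay below the 99th percentile over all negative control spots, which every spot of miR-372-3p and miR-373-3p exceeded. On this array the AAGUGCU seed was carried by these 2 members alone among the miRNAs detected and matched to RefSeq, of which 2248 of 2549 were matched.

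**Figure D4:**
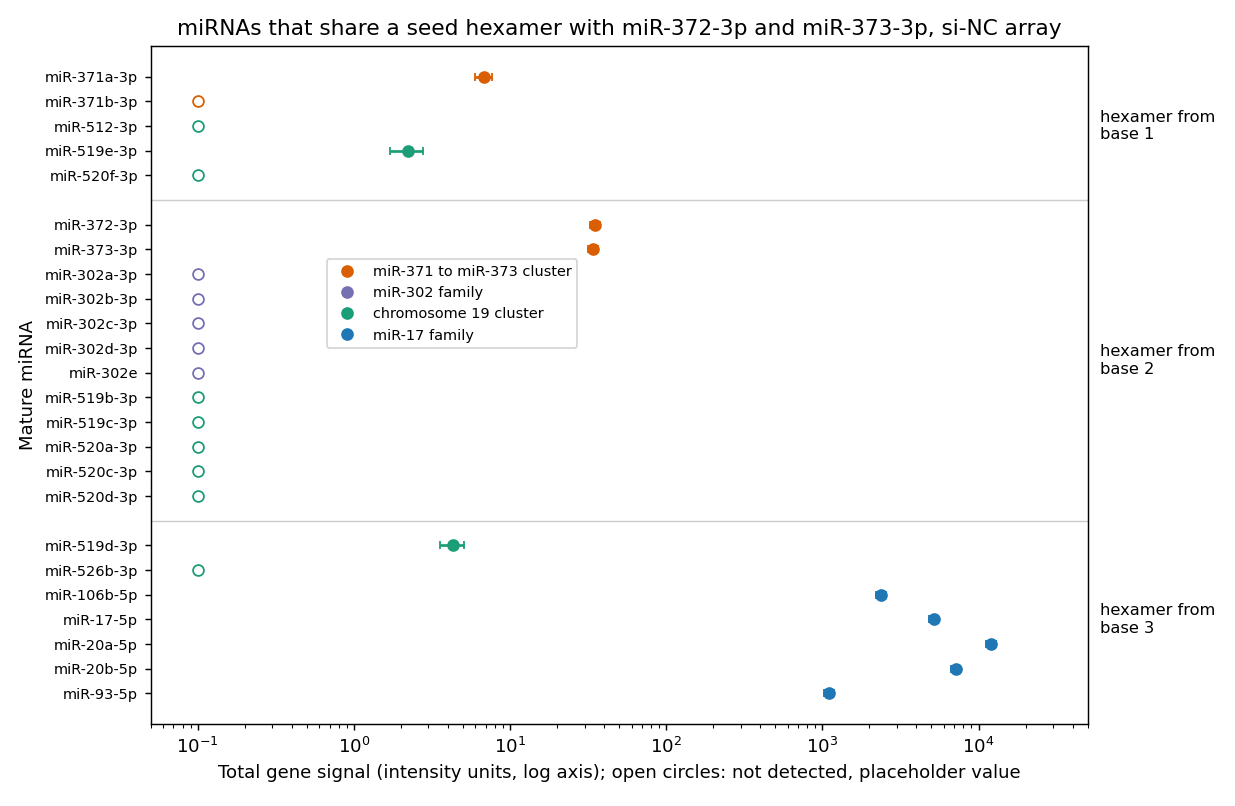
Total gene signal (x axis, log scale, intensity units) of the 24 miRNAs matched to RefSeq with the hexamer from base 1, 2 or 3 (y axis, grouped by that base). Filled circles are detected miRNAs with the error of the software, and open circles are undetected ones at the placeholder of 0.1. Of the 12 with the hexamer from base 2, only miR-372-3p and miR-373-3p were detected.

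Sequence shared with bright miRNAs was measured as the longest common run of bases, among the miRNAs matched to RefSeq. For miR-372-3p the longest run with a non-member was 9 bases, its bases 1 to 9, shared with miR-106b-5p and miR-93-5p, which were both detected. Another 9 bases were shared with miR-3683, at 0 of 19 spots. For miR-373-3p the longest run was also 9 bases, and none of the miRNAs that shared it was detected. Among these, miR-302a-3p had 0 of 20 spots well above background and miR-520c-3p 0 of 16. The run of miR-373-3p with miR-17-5p, which was detected, was 8 bases. The part of related miRNAs in the signals of miR-372-3p and miR-373-3p was not tested, and the probe sequences were not used here.

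The miR-302 and miR-367 names, most of them of the other miRNA cluster known from pluripotent stem cells, were read in the same way. Of 12 miRNAs with these names, RefSeq places 10 in that cluster on chromosome 4, miR-302e on chromosome 11 and miR-302f on chromosome 18. Among the 10, as among the 12, only miR-302c-5p was detected, at 6.69 ± 0.827, with 18 of 18 spots well above background between 14.2 and 22.6. For the other 11 of the 12 no spot was well above background, and the highest spot was 6.82, of miR-302a-5p. The 4 miR-302 3p arms of the cluster, which carry the AAGUGCU seed, were undetected, while those of miR-372 and miR-373 were detected. In the neighbouring chromosome 19 cluster, which RefSeq places between MIR512-1 and MIR519A2, 43 mature miRNAs of the array were matched by name. Of these 43, 8 were detected, with total gene signals from 1.36 to 7.88. This was 18.6%, beside 6 of 8 for the members, and no test was made of the difference.

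Listed marker miRNAs were read beside the labelled cell type. How far each of them is particular to a cell type was not tested. All 5 miRNAs listed for colon epithelium were detected. They were miR-21-5p at 23842 ± 1688, miR-141-3p at 7625 ± 542, miR-200c-3p at 2576 ± 193, miR-192-5p at 832 ± 59.0 and miR-194-5p at 319 ± 23.7. Of 7 markers of other cell types, 42.9% were detected, beside 44.4% over all miRNAs. The neural miR-9-5p stood at 22.1 ± 1.71 and the blood markers miR-223-3p and miR-142-3p at 25.4 ± 1.97 and 695 ± 50.05. The markers miR-1-3p, miR-133a-3p, miR-122-5p and miR-124-3p had no spot well above background. The part of other cells in the signal of the members was not tested.

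The list of miRNAs that the study gives as lower after circLONP2 knockdown names miR-372 and miR-373, without an arm, and neither miR-371a nor miR-371b. These were 2 of 74 entries. On the array 1133 mature miRNAs were detected, with arms counted apart, so the counts are not in the same unit. Both named hairpins had a 3p arm with all spots well above background in this control array. That list compares knockdown cells with negative control cells, so a miRNA listed as lower needs a signal in the control. Detection of the named hairpins here is therefore not independent evidence.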

How the data were processed

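One DLD-1 sample transfected with negative control siRNA was measured on 1 array. Per the file headers, the scanner software Feature Extraction 11.0.1.1 gave each spot an intensity with its background subtracted and no normalization between arrays, on a design made for hg19. The labels give labelling with Cyanine 3-pCp, while the methods of the study describe cDNA labelling. The authors also deposited log2 values, quantile normalized in GeneSpring, whose scale and floor were read from the values.

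Detection was the flag of the software. Spots flagged as outliers, 4.51% of those for miRNAs, were not used. Levels were log2 spot signals minus log2 of their 75th percentile over detected miRNAs. Usable probes had 50% or more of their spots flagged as well above background. The miRNA names were matched to RefSeq mature sequences (88.2% matched). Coordinates are those of RefSeq on GRCh38.p14, and the array file gives none. Calculations ran in Python 3.11.15 (matplotlib 3.10.9, scipy 1.17.1, pandas 2.3.3, numpy 2.4.6). The normexp correction, offset 50, came from limma 3.58.1 in R 4.3.3 and used the median spot signal, where the plan had named the mean. Spot calculations were tested on simulated data with signals above those of most members and every spot flagged as well above background. Dim signals and the filter for usable probes were thus not covered.

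The members, lists and settings were chosen with earlier results of these data known. The rule named all 8 members, every detected miRNA of a list or, where these were over 6, the 4 with the highest signal, and the neighbours in gene order. With 1 array, no miRNA was named for a like pattern. Alternatives were other detection rules, another percentile, normexp, dim probes included, outliers included and the deposited values. A count was taken as unchanged within 1.5 times, the share of spots within its 95% binomial interval, and other values within the spread over spots or probes. The single array limits the precision.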

Additional observations from a re-analysis of the deposited data

How the results depend on the processing

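Over 13 results, 51 alternative values were computed, of which 36 stayed within their limits and 15 moved, 12 of them levels of single members. The count of 6 detected members was 5 when 1 probe, or every probe, needed 50% of its spots well above background, when the brightest probe had to pass the 99th percentile of negative controls, and when the total signal had to reach 5. The arm lost was miR-373-5p in each case, and no arm was gained. Over all 2549 miRNAs these rules, in the same order, called 37.9%, 29.3%, 34.8% and 33.3% detected. The deposited floor kept 6, since the floor follows the same flag. The count of 1 among the 12 miRNAs named miR-302 or miR-367 held under each rule. The 7 other miRNAs with the hexamer fell to 5 under the last 3 of these 4 rules, which removed miR-519d-3p and miR-519e-3p. The median level of the 6 detected members, -1.85, became 0.59 when every miRNA spot entered the percentile, where the reference signal falls from 143 to 26.3, and to -1.02 with normexp, which adds an offset to every signal. The largest difference between probes, 0.28, moved to 0.16 with normexp. Signal over background limits miR-373-5p and miR-372-5p.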
